A study of Mus musculus with 40 samples.

Results

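The MHC class II antigen presentation genes were examined in fat and liver of mouse offspring whose fathers had been exposed to nicotine or to a control. The 7 genes were taken by symbol, H2-Aa, H2-Ab1, H2-Eb1, H2-DMa, H2-DMb1, Cd74 and Ciita, from 20078 gene symbols in 4 tables of normalized counts, and each of the 7 had a row in every table. They were chosen as the members of a known pathway, with earlier results of these data known. All animals were C57BL/6J, an inbred strain, and the groups were female gonadal white adipose tissue (gWAT, the fat around the gonads), male gWAT, female liver and male liver, each from offspring of nicotine-exposed fathers (called nicotine here) and of control fathers (called control; the table columns name them DMSO). The labels give 5 samples to each of the 8 groups; the male gWAT table was analysed with 5 nicotine and 4 control libraries, whose column names do not show which labelled samples they are and which are called control libraries 1 to 4. The offspring were sampled, not the exposed fathers. The labels state neither nicotine dose, offspring age nor litter, so p-values measure the spread between these samples only.

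MHC class II molecules are pairs of an alpha and a beta chain that carry peptides from the endosome to the cell surface, where CD4 T cells read them. Dendritic cells, macrophages and B cells make most of them. In fat, macrophages and dendritic cells between the adipocytes are the main source, and in liver the resident macrophages and dendritic cells. The invariant chain, encoded by Cd74, holds the new pair and keeps its groove closed, H2-DM exchanges the remaining invariant chain fragment for peptide, and Ciita switches the whole set on at promoters that carry a conserved pair of elements, the X box and the Y box. C57BL/6J mice have the H2-b haplotype, which makes I-A (H2-Aa with H2-Ab1) but no functional alpha chain for I-E, so the H2-Eb1 transcript has no partner chain at the cell surface. The 5 H2 genes lie in the MHC on chromosome 17 (mm10), from the start of H2-DMa at 34119541 to the end of H2-Eb1 at 34316674, while Cd74 and Ciita lie on other chromosomes.

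Libraries were 3′-tag libraries, in which each transcript is read near its 3′ end, and held 1543208 to 2239073 reads. Adipocyte markers summed to between 15408 and 81043 normalized counts in gWAT libraries and to at most 269.9 in liver libraries, and hepatocyte markers to at least 54353 in liver and at most 3357 in gWAT, as the tissue labels say. Several libraries carried transcripts of a neighbouring tissue. In male gWAT, male reproductive tract markers summed to 17782 in nicotine library 1 and 23161 in control library 1, against at most 4113 in the other libraries, and hepatocyte markers were also highest in nicotine library 1 (3357, with a median of 269 in its group). In female gWAT, skeletal muscle markers summed to 22344 in control library 2, against 13.2 to 1222 elsewhere, and female reproductive tract markers to 360.9 in control library 4, against 10.1 to 49.3 elsewhere. In female liver, nicotine library 5 and control library 4 carried muscle transcripts (295.4 and 165.5, against at most 17.7). Nicotine library 5 also had the highest sum of the female reproductive tract list (160.1, against at most 11.7), most of it Star (135 normalized counts). In male liver, nicotine library 2 carried pancreas transcripts (7795, against at most 131.8) and nicotine library 4 carried muscle transcripts (6193, against at most 8.42). Control library 2 of this male tissue had the highest sum of the female reproductive tract list (117, against at most 7.37). Star was the larger part of that sum (80.1 normalized counts), and the tissue it came from was not tested. Adipocyte marker sums in liver had a higher median in nicotine than in control libraries. In females it was 84.5 (15.3 to 191) against 11.8 (6.80 to 58.8), and in males 139 (32.5 to 155) against 36.2 (16.0 to 270). The ranges overlapped in both sexes, and whether these transcripts bear on the liver class II values was not tested.

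In female gWAT the class II genes were lower in the nicotine group. Of the 6 members that passed the filter (mean normalized count of 10 or more), 5 fell and 1, Ciita, did not pass the test; none rose. Limma called 25.2% of all 10532 genes tested in this table, 12.8% lower, at a Benjamini-Hochberg adjusted p below 0.05, so the table as a whole moved. The median change of the 6 members was -1.30 on the log2 scale, against -0.03 for all genes tested. Here and below, changes are nicotine minus control on log2(normalized count + 1), which understates the change of low genes.

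H2-Eb1, the beta chain of I-E, had 26.4, 21.7, 32.7, 31.2 and 57.2 normalized counts in nicotine libraries 1 to 5, against 157, 122, 185, 225 and 122 in control libraries 1 to 5. Every nicotine library lay below every control library, a pattern seen in 8.19% of the genes tested in this table. The means were 33.9 ± 13.7 in nicotine and 162 ± 44.2 in control gWAT (SD, n = 5 each), a log2 change of -2.26 (SE 0.25, limma adjusted p = 9.5e-05). These rested on 164 and 898 reads in all.

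H2-Aa, the alpha chain of I-A, had 96.3, 124, 141, 86.5 and 222 normalized counts in nicotine libraries, against 309, 242, 418, 486 and 282 in control libraries. The groups did not overlap, although nicotine library 5 came close to control library 2. The log2 change was -1.40 (SE 0.26, limma adjusted p = 0.0019; means 134 ± 53.8 in nicotine and 347 ± 102 in control, SD, n = 5 each). H2-Ab1, the beta chain of I-A, had 58.5, 65.2, 70.0, 28.8 and 105 normalized counts in nicotine libraries, against 128, 102, 189.5, 206 and 162 in control libraries. Here only nicotine library 5, the highest of its group, reached the lowest control library. The log2 change was -1.32 (SE 0.29, limma adjusted p = 0.0058).

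H2-DMb1, the beta chain of the peptide editor, had 31.0, 33.8, 43.6, 10.8 and 50.6 normalized counts in nicotine libraries, against 46.1, 59.5, 81.2, 139 and 75.4 in control libraries. Nicotine library 5 overlapped the control range, and control library 4 was the highest of all. The log2 change was -1.27 (SE 0.37, limma adjusted p = 0.023), with an adjusted p of 0.062 without control library 4. Reads of H2-DMb1 and its near-identical neighbour H2-DMb2 may not be fully separated. H2-DMa, the alpha chain of the peptide editor, had a mean under 10 and was not among the genes tested. It had 3.44, 8.45, 6.36, 3.61 and 3.75 normalized counts in nicotine libraries, against 11.8, 11.9, 15.7, 15.6 and 9.94 in control libraries. The groups did not overlap, on 24 and 72 reads, and in a fit without the filter its change was -1.24 (SE 0.38, limma adjusted p = 0.035). H2-DMa overlaps Brd2, among others, on the opposite strand and CR974462.3 on the same strand. Whether counting used strand is not stated, so reads of H2-DMa and of the genes it overlaps cannot be told apart.

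Cd74, the invariant chain, had 33.2, 13.3, 9.09, 10.8 and 28.1 normalized counts in nicotine libraries, against 33.3, 27.5, 32.3, 43.1 and 42.2 in control libraries. Nicotine libraries 1 and 5 reached the control range and the other 3 were below it. The log2 change was -1.04 (SE 0.34, limma adjusted p = 0.037), but its adjusted p was above 0.05 in 7 of the 10 fits that left out a library and in edgeR (adjusted p = 0.073). Ciita, the switch of the pathway, had 16.1, 3.62, 8.18, 6.01 and 10.3 normalized counts in nicotine libraries, against 11.8, 8.25, 15.7, 17.4 and 15.7 in control libraries, and these ranges overlapped widely. Its change was -0.68 (95% interval -1.57 to 0.21, limma adjusted p = 0.24). Ciita likewise overlaps Dexi on the opposite strand, and its counts were small, 42 and 77 reads in all. Cd74 overlaps Mir5107 on the same strand, and the effect of Mir5107 on the Cd74 count was not tested.

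**Figure D1:**
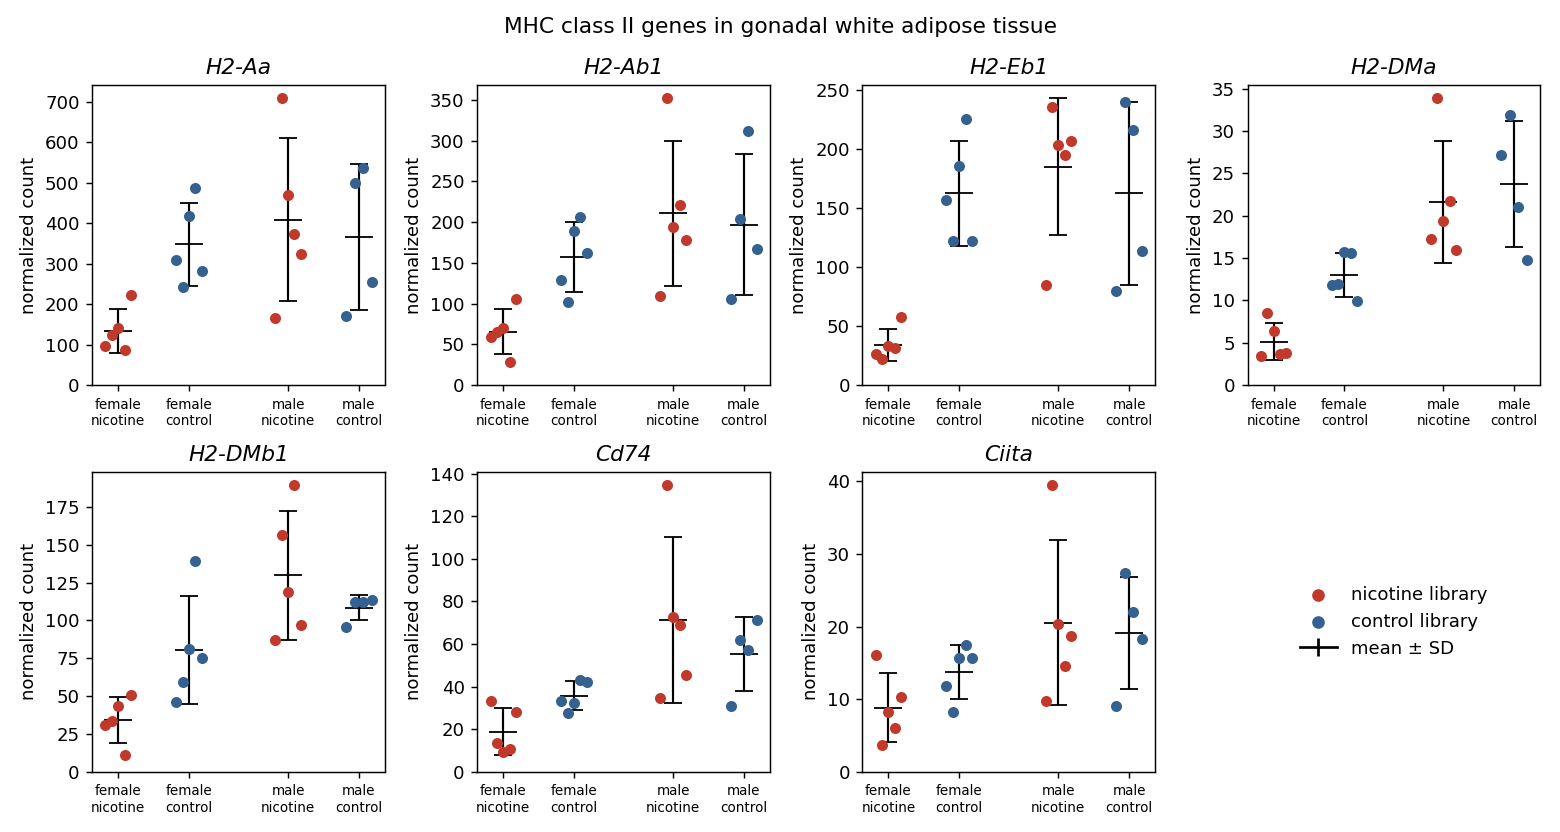
Normalized count (y axis, a separate scale for each gene) of the 7 class II genes in each gWAT library, nicotine left of control within each sex, with the mean and SD as black bars. In female gWAT the nicotine libraries of H2-Eb1, H2-Aa and H2-DMa lie below all control libraries; in male gWAT the groups overlap for every gene.

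Without control libraries 2 and 4 of female gWAT, 3 members passed (H2-Eb1 -2.21, H2-Aa -1.38 and H2-Ab1 -1.37), and H2-DMb1 and Cd74 did not (adjusted p = 0.091 and 0.099). Across all genes of this table, the change correlated with transcript length (r = 0.23 with log2 length) and with GC content (r = -0.19), over genes, which are not independent replicates. With each library's trend on length and GC content removed, the same 3 members passed, H2-Eb1 at -1.99 (adjusted p = 0.0002), H2-Aa at -1.41 and H2-Ab1 at -0.87 (adjusted p = 0.030), and H2-DMb1 and Cd74 did not (adjusted p = 0.059 and 0.19).

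The stretch just before the start of 3 of these genes is shown because H2-Eb1, H2-Aa and H2-DMb1 fell together. The sequences are the 120 bases before the RefSeq start of each gene (GRCm38.p6), 5′ to 3′ on the gene's strand. Capitals mark the letters found on the gene's strand, AACTGATG as the core of the X box and TGATTGG as the core of the Y box (the inverted CCAAT box bound by NF-Y).
H2-Eb1, chr17:34305747-34305866, plus strand: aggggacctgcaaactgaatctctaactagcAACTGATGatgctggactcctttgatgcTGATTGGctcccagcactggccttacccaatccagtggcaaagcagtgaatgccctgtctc
H2-DMb1, chr17:34153071-34153190, plus strand: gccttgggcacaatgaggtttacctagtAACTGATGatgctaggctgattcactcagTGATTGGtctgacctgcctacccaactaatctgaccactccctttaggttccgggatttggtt
H2-Aa, chr17:34287824-34287943, minus strand: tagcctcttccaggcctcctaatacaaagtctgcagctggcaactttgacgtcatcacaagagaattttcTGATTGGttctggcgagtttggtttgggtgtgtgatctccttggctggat
In H2-Eb1 and H2-DMb1 the X and Y letters stood on one strand, 20 and 21 bases apart, and in H2-Aa only the Y letters matched. Only these exact letters were searched. A promoter without them may carry another form of the X or Y box, so H2-Aa is not shown to lack an X box. With both strands searched, TGATTGG occurred in 7.82% and AACTGATG in 0.776% of 32851 promoter windows of 300 bases, and 11 windows held both on one strand. The RefSeq windows covered 4 of the 7 members; H2-Ab1, Cd74 and Ciita were not matched, and the H2-DMa windows held neither motif.

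The genes around the pathway in female gWAT moved unevenly. Of 10 endosomal processing genes, 6 fell and none rose (list median -0.94): the cathepsins Ctsh (39.6 ± 20.1 in nicotine and 147 ± 63.3 in control, SD, n = 5 each; log2 change -1.95, limma adjusted p = 0.0019) and Ctss, which trims the invariant chain (-1.68, adjusted p = 0.0042), the legumain gene Lgmn (-1.46, adjusted p = 0.0028) and Marchf1, a ligase that removes class II from the surface (-1.41, adjusted p = 0.019), were the 4 with the smallest p. Of 4 promoter factors tested, Creb1 rose (213 ± 26.1 in nicotine and 133 ± 26.4 in control; 0.69, adjusted p = 0.0082) and 3 did not pass. Of 12 interferon gamma axis genes tested, Cxcl9 rose (0.90, adjusted p = 0.022) and 11 did not pass. Of 11 class I presentation genes tested, the peptide transporter subunit Tap1 (1.13, adjusted p = 0.0063) and the peptide trimming enzyme Erap1 (0.67, adjusted p = 0.012) rose, and Tapbp, which joins class I to the transporter, fell (-0.84, adjusted p = 0.010). No other class II chain or costimulation gene passed the filter.

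Macrophage markers fell alongside the class II genes. Of 10 macrophage markers tested, 8 fell and none rose (list median -1.68), led by C1qc (23.1 ± 9.52 in nicotine and 147 ± 43.4 in control, SD, n = 5 each; -2.67, limma adjusted p = 0.0001), the scavenger receptor Cd163 (-2.59, adjusted p = 0.0001), C1qb (-2.33, adjusted p = 0.0003) and the mannose receptor Mrc1 (-1.53, adjusted p = 0.0004). The 16 macrophage markers with a row summed to 442 to 760.1 normalized counts in nicotine libraries, against 1176 to 2089 in control libraries. Of 4 dendritic cell markers tested, Clec10a, a lectin that macrophages also make, fell (81.5 ± 32.2 in nicotine and 250.2 ± 62.7 in control; -1.66, adjusted p = 0.0008), and Zbtb46, Fscn1 and Wdfy4 did not pass. The dendritic cell list summed to 148 to 227 in nicotine libraries, against 297 to 508 in control libraries, with Clec10a its largest term. B cell markers were near 0, summing to 1.21 to 11.3 in nicotine libraries and 7.84 to 12.4 in control libraries over the 5 analysed here. These ranges overlapped, and no B cell marker passed the filter. Of the other lists, Cxcl13, a stromal chemokine, fell (-2.36, adjusted p = 0.038), and Plin1, the coat protein of fat droplets, rose (1.46, adjusted p = 0.0027) while the other 5 adipocyte markers did not pass; no gene of the T and NK cell, hepatocyte, skeletal muscle, female reproductive tract or pancreas lists passed. Whether the class II fall is as large per antigen presenting cell was not tested: in bulk tissue, fewer cells of a type and less RNA per cell cannot be told apart.

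**Figure D2:**
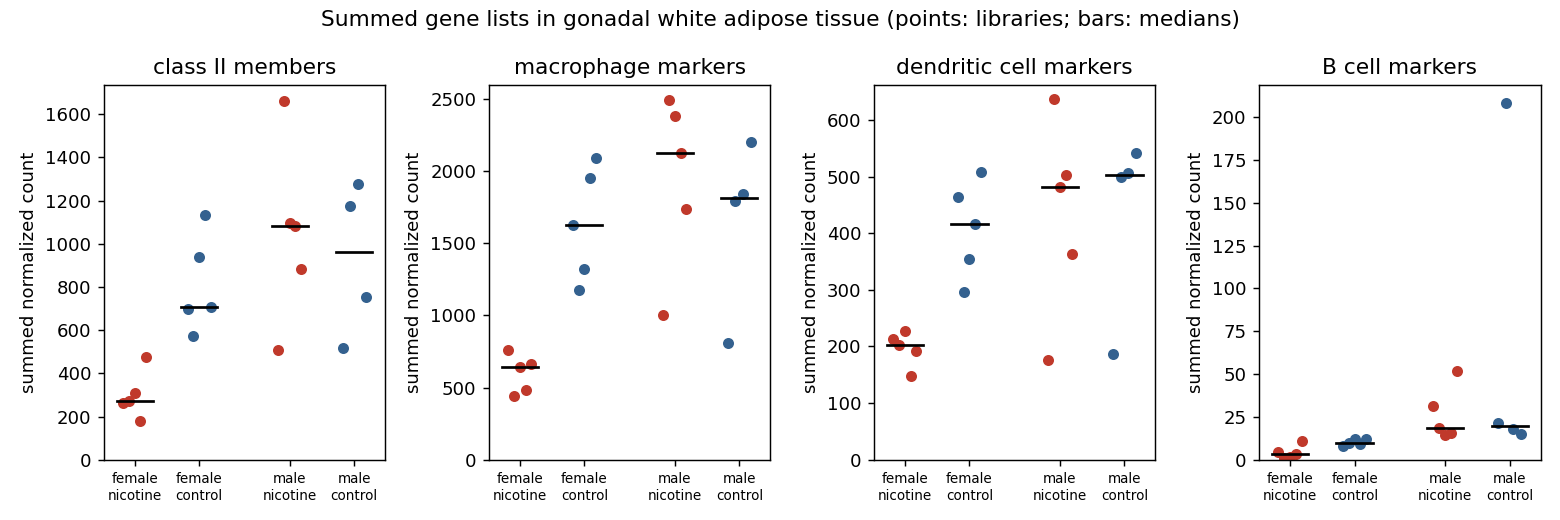
Summed normalized count (y axis) of the 7 class II genes and of macrophage, dendritic cell and B cell marker lists in each gWAT library, with medians as bars. Class II, macrophage and dendritic cell sums of the nicotine libraries lie below all control libraries in female gWAT; in male gWAT the 2 libraries with reproductive tract transcripts are the lowest of their groups for class II, macrophage and dendritic cell sums.

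In male gWAT none of the 7 members passed (limma adjusted p = 0.9996 for each), in a table where 0% of 11210 genes were called by limma, edgeR or DESeq2 and 182 had an unadjusted limma p under 0.05. The changes ran from -0.12 for H2-DMa to 0.27 for Cd74, with a median of 0.16, against 0.01 for all genes tested. H2-Aa had 165, 709.7, 468, 373 and 324 normalized counts in nicotine libraries, against 171, 499, 536 and 254 in control libraries. H2-Eb1 had 85.0, 235, 203, 195 and 207 in nicotine libraries, against 79.7, 239, 216 and 114 in control libraries. The lowest library of each group was the one with reproductive tract transcripts, where the class II sums were 507 (nicotine library 1) and 519 (control library 1), against 752 to 1661 elsewhere. The 95% interval of the H2-Eb1 change was -0.60 to 1.09 and that of H2-Aa -0.82 to 1.14. Without nicotine library 1 and control library 1, H2-Eb1 was at 0.21 and H2-Aa at 0.13, and none passed. None of the genes of the other lists passed in this table; control library 2 had a B cell marker sum of 208, against 14.5 to 52.0 in the other libraries.

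The female and male changes were then compared within gWAT. H2-Eb1 differed between the sexes (female minus male change -2.51, SE 0.47, limma adjusted p = 0.0039), the only member of 6 tested to do so, in a test that called 8.87% of 10042 genes. H2-Aa (-1.56), H2-DMb1 (-1.48), H2-Ab1 (-1.42) and Cd74 (-1.31) had the same direction with adjusted p from 0.058 to 0.12, and Ciita was at -0.73 (adjusted p = 0.45). Averaged over both sexes, the H2-Eb1 change was -1.01 (SE 0.23, limma adjusted p = 0.022, with 4.04% of genes called), and the other 5 did not pass. The H2-Eb1 change was -2.26 in females and 0.25 in males, so this average does not show a fall in both sexes. Without male nicotine library 1 and male control library 1, the sex difference of H2-Eb1 was -2.48 (adjusted p = 0.0012) and that of H2-Aa also passed (-1.54, adjusted p = 0.031). With female control libraries 2 and 4 left out as well, H2-Eb1 was the only member to pass in either comparison (sex difference -2.43, adjusted p = 0.0041; both sexes -1.001, adjusted p = 0.020).

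**Figure D3:**
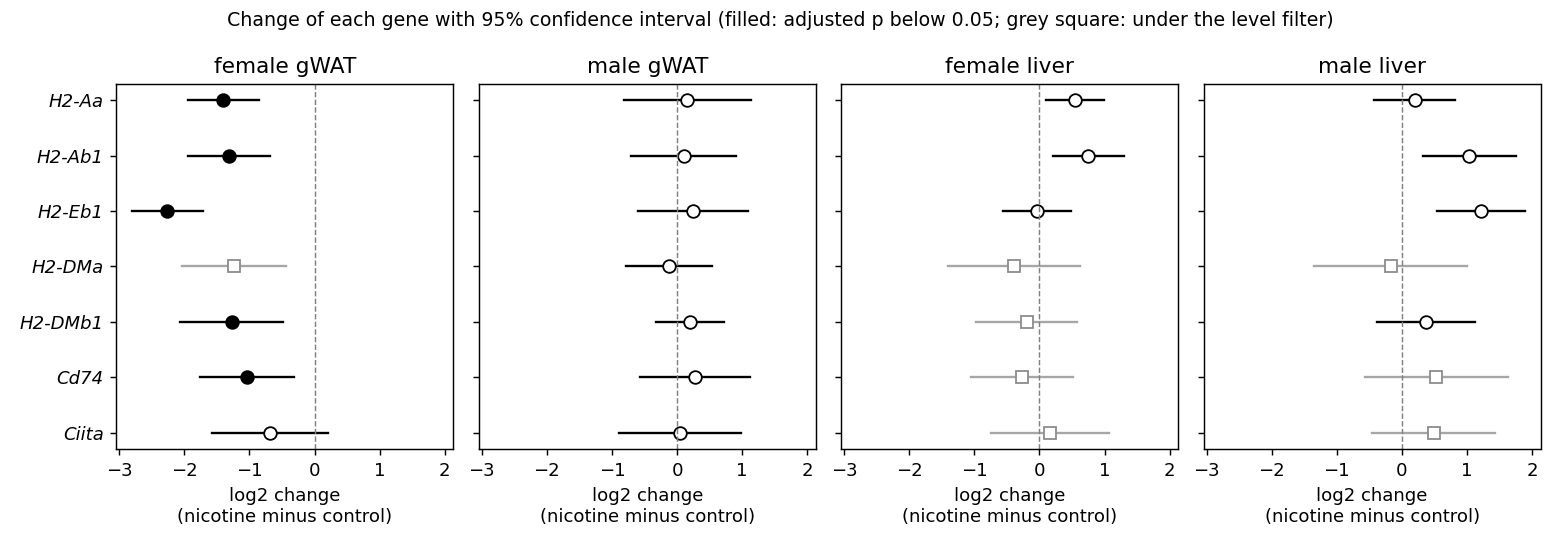
Log2 change of each class II gene (nicotine minus control, x axis) with its 95% interval in the 4 tables; filled points passed the limma test at an adjusted p below 0.05, open points did not, and grey squares had a mean under 10 and were not tested. The 5 filled points are all in female gWAT and lie left of 0.

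Class II transcripts were scarcer in liver than in gWAT: H2-Aa stood at 211 CPM in control female gWAT and 14.2 CPM in control female liver, and at 213 CPM in control male gWAT and 20.4 CPM in control male liver (CPM, recovered reads scaled to the library total). For the 7 genes the control gWAT level in CPM was 3.15 to 14.8 times the control liver level in females and 6.03 to 13.2 times in males, given as a description with no test because the tables were normalized separately. In female liver none of the 3 members that passed the filter was called (median change 0.54, against 0.00 for all genes tested), in a table with 3.28% of 9173 genes called and 1610 genes at an unadjusted p under 0.05 (edgeR called 300 genes and DESeq2 337, no member among them). H2-Ab1 had 23.6, 38.0, 21.5, 19.6 and 38.2 normalized counts in nicotine libraries, against 14.6, 15.4, 13.4, 28.5 and 10.9 in control libraries. Control library 4 was the one high control, and the others lay below all nicotine libraries. The change was 0.75 (95% interval 0.21 to 1.29, limma adjusted p = 0.12), and without control library 4, which carried muscle transcripts, it was 0.96 (adjusted p = 0.045). Without both libraries that carried muscle transcripts, nicotine library 5 and control library 4, it was 0.83 and did not pass (adjusted p = 0.11). H2-Aa was at 0.54 (95% interval 0.10 to 0.98, adjusted p = 0.18) and H2-Eb1 at -0.04 (adjusted p = 0.96). H2-DMa, H2-DMb1, Cd74 and Ciita were under the filter, with 15 to 51 reads per gene and group in all. Of the lists, Irf1, a transcription factor induced by interferon gamma, fell (113 ± 13.9 in nicotine and 178 ± 26.6 in control, SD, n = 5 each; -0.64, limma adjusted p = 0.0047), and B2m, the light chain of class I, rose (0.35, adjusted p = 0.022).

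In male liver none of the 4 members tested was called by limma (median change 0.70, against 0.00 for all genes tested), in a table where limma called 0.055% of 9093 genes and 1322 had an unadjusted p under 0.05. H2-Eb1 had 64.0, 16.6, 25.1, 30.7 and 43.4 normalized counts in nicotine libraries, against 14.8, 12.7, 8.86, 16.6 and 15.7 in control libraries. Nicotine library 2, which carried pancreas transcripts, was the only one to reach the control range. The change was 1.21 (SE 0.32, limma adjusted p = 0.14); DESeq2, which called 2.05% of the genes, gave an adjusted p of 0.017, and the authors' deposited table gave 0.028. H2-Ab1 had 50.8, 28.0, 17.8, 35.8 and 56.5 in nicotine libraries, against 11.9, 25.3, 11.5, 26.4 and 13.4 in control libraries. Nicotine library 3 lay inside the control range, and the change was 1.03 (SE 0.33, limma adjusted p = 0.21). H2-DMb1 was at 0.37 (adjusted p = 0.65) and H2-Aa at 0.19 (adjusted p = 0.80). Without nicotine libraries 2 and 4, which carried pancreas and muscle transcripts, H2-Eb1 was at 1.55 (adjusted p = 0.05004), H2-Ab1 at 1.12 (adjusted p = 0.16) and H2-Aa at 0.40 (adjusted p = 0.50). Without control library 2, H2-Eb1 was at 1.19 and H2-Ab1 at 1.18 (adjusted p = 0.22 for both). No gene of the other lists passed with limma. DESeq2 called the macrophage marker C1qb (39.0 ± 8.94 in nicotine and 19.9 ± 6.93 in control, SD, n = 5 each; DESeq2 log2 change 1.01, adjusted p = 0.032; limma adjusted p = 0.14) and Tap2, a subunit of the class I peptide transporter (DESeq2 log2 change 1.53, adjusted p = 0.028; limma adjusted p = 0.18). For each of the 2 genes 1 nicotine library overlapped the controls. Macrophage markers summed to 1081 ± 45.8 in nicotine libraries and 976 ± 45.5 in control libraries (SD, n = 5 each), with overlapping ranges; their part in the class II values was not tested. The class II sum was highest in nicotine libraries 1 and 5, where dendritic cell markers summed to 73.6 and 68.8, against 32.0 to 58.2 in the other libraries of male liver. These libraries also had the lowest normalized totals of male liver. Without both, H2-Eb1 was at 0.76, H2-Ab1 at 0.63 and H2-Aa at -0.21, and none passed with limma.

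**Figure D4:**
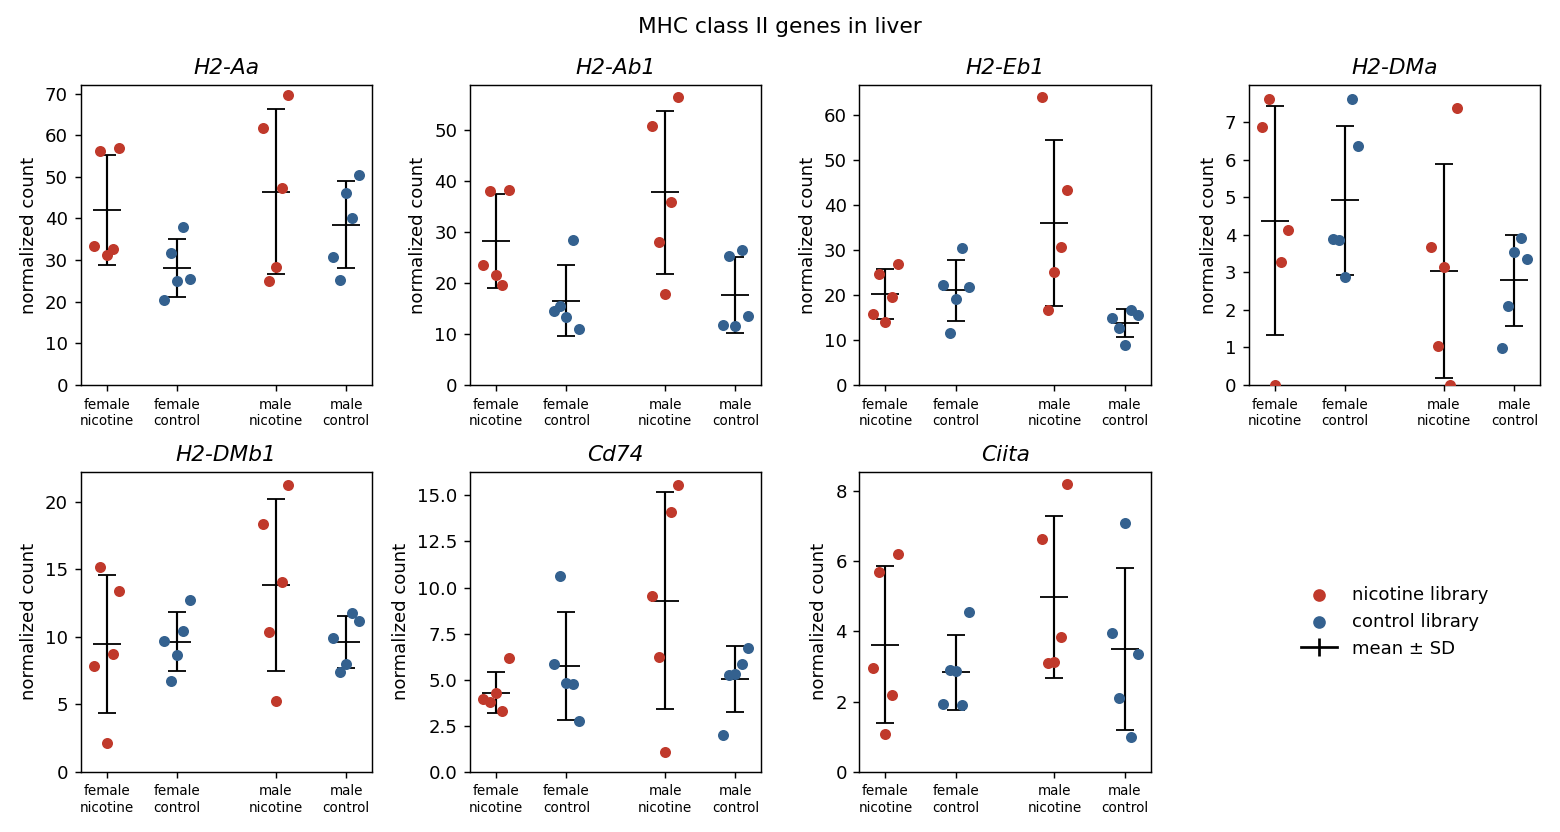
Normalized count (y axis, a separate scale for each gene) of the 7 class II genes in each liver library, nicotine left of control within each sex, with the mean and SD as black bars. H2-Ab1 in female liver shows 1 high control library, and H2-Eb1 in male liver shows 4 of 5 nicotine libraries above all controls.

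Over both sexes of liver, H2-Ab1 rose (0.89, SE 0.22, limma adjusted p = 0.039; 1.74% of 8699 genes called), with 0.75 in females and 1.03 in males. It did not pass in 12 of the 20 fits that left out 1 library (adjusted p up to 0.082). H2-Eb1 (0.59) and H2-Aa (0.37) did not pass, and no member differed between the sexes (H2-Eb1 -1.25, adjusted p = 0.14; 1.56% of genes called). Without the 4 libraries that carried muscle or pancreas transcripts, H2-Ab1 over both sexes was at 0.98 (adjusted p = 0.038), and the sex difference of H2-Eb1 passed (-1.56, adjusted p = 0.043), as it did without male nicotine library 2 alone (-1.49, adjusted p = 0.040).

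The balance of the chains within a library was compared as a log2 ratio, in which the scaling of the library nearly cancels. These 12 ratios were chosen after the values were seen, and the ratios within a table depend on each other, so their p-values are descriptions. The exact two-sided permutation test has a smallest p of 0.00794. The adjusted 0.048 below is reached because female gWAT and male liver share that smallest p. In female gWAT H2-Eb1 over H2-Aa was lower in nicotine libraries (-2.46 to -1.44, against -1.20 to -0.97 in control libraries; difference -0.86, exact permutation p = 0.00794, adjusted over the 12 ratios 0.048). In male liver it was higher in nicotine libraries (-0.67 to 0.05, against -2.26 to -0.95; difference 1.02, exact permutation p = 0.00794, adjusted 0.048). In female liver, unlike male liver, the mean H2-Eb1 over H2-Aa was lower in nicotine libraries (difference -0.58, exact permutation p = 0.048, adjusted 0.11). H2-Eb1 over H2-Ab1 differed by -0.79 there and by -0.94 in female gWAT (exact permutation p = 0.016 and 0.024, adjusted 0.063 and 0.071). In male gWAT the ratios differed by -0.06 to 0.15 (exact permutation p = 0.52 to 0.78). H2-Ab1 over H2-Aa differed by 0.08 in female gWAT (exact permutation p = 0.63), by 0.21 in female liver (exact permutation p = 0.23) and by 0.84 in male liver (exact permutation p = 0.087, adjusted 0.17). H2-Eb1 over H2-Ab1 differed by 0.18 in male liver (exact permutation p = 0.56), so there H2-Eb1 shifted against H2-Aa and not clearly against H2-Ab1. H2-Eb1 overlaps Gm20513 on the opposite strand, and its share of these reads was not tested.

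After removal of the group means, the genes whose levels followed H2-Ab1 most closely over the 19 gWAT libraries, beside H2-Aa (Pearson r = 0.91), were Tpst1 (0.89), Gas7 (0.87), Ear2 (0.86), C2 (0.84) and Lyz1 (0.83), among 10041 genes. Over all 39 libraries and 7752 genes, they were Tgm2 (0.71), the chemokine receptor Ccr2 (0.69), Alox5ap (0.66), Ccl6 (0.66) and Ly6a (0.65), beside H2-Aa (0.76) and H2-Eb1 (0.68). Over the 20 liver libraries and 8698 genes they were Lamb1 (0.81), Fstl1 (0.81), Itga6 (0.81), Llgl1 (0.80) and Ccdc80 (0.77), and the class II genes ranked lower there (H2-Eb1 0.61, rank 96; H2-Aa 0.58, rank 142). These likenesses are descriptions over libraries that share depth and tissue makeup. Of 12 relations of H2-Ab1 to the sums of the B cell, dendritic cell and macrophage markers, 4 had a Pearson permutation p below 0.05 after adjustment, and none by Spearman's rho. In female gWAT the nicotine and control libraries form separate clusters on the dendritic cell and macrophage sums, so no pooled r is given. With each group's mean removed, the relation over the 10 libraries did not pass for the dendritic cell sum (r = 0.52, rho = 0.14, permutation p = 0.12 and 0.71) or the macrophage sum (r = 0.47, rho = 0.38, permutation p = 0.18 and 0.28; adjusted p of both r values 0.47). In male gWAT H2-Ab1 followed the dendritic cell sum (r = 0.87, rho = 0.73, exact permutation p = 0.0023 and 0.031, adjusted 0.0092 and 0.093; n = 9) and the macrophage sum (r = 0.80, rho = 0.67, exact permutation p = 0.013 and 0.059, adjusted 0.040 and 0.12; n = 9). With group means removed, r was 0.87 and 0.80 (exact permutation p = 0.0019 and 0.015, adjusted 0.023 and 0.092). The matching rho was 0.83 and 0.62 (adjusted exact permutation p = 0.099 and 0.51). Without the 2 libraries farthest from the median of the sum, r was 0.60 and 0.25 (exact permutation p = 0.17 and 0.55), so both were weaker and neither passed. With so few libraries left, this cannot tell whether the dendritic cell relation holds among them. No relation passed in liver.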

How the data were processed

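The labels' protocols describe RNA purified with a Zymo Direct-zol kit and 3′-tag libraries from an Illumina kit. Cutadapt, STAR, DESeq2 and the mm10 build are named in the submitters' processing notes; counting and strand use are not stated. The deposited signal is normalized counts: the authors divided each library's gene counts by its DESeq2 size factor, separately in 4 tables. The deposited tables also hold the authors' log2 fold change with its standard error, p-value and adjusted p-value. Whole read counts were recovered from the deposited values (100% whole within 0.1 reads). All samples share batch 1 in the labels.

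The members and lists were chosen with earlier results of these data known. Limma 3.58.1 (R 4.3.3, mean trend) was run per table on log2(normalized count + 1), keeping genes whose mean reached 10, with p-values adjusted over all tested genes (Benjamini-Hochberg, threshold 0.05). Male gWAT was planned with 5 control libraries and fitted with 4. Sex differences and averages came from 1 fit per tissue. Named genes were the 7 members, of each other list those past the threshold (at most 4 by p, else the 1 of smallest p), and the 5 genes closest to H2-Ab1. Alternatives were pseudocounts of 0.5 and 5, no filter, a mean of 50, quantile or total-read scaling, edgeR 4.0.16, DESeq2 1.42.0, a replicate block, leaving out libraries, and removal of length and GC trends (splines with 4 degrees of freedom, 95.0% of female gWAT genes matched). Trend removal, total-read scaling and most joint omissions were chosen after seeing the data. Simulated 2-fold and 4-fold changes were placed in a small set of genes, far fewer than limma called in female gWAT. The test recovered 17.5% and 86.5% of them in female gWAT and 0% and 66% in male gWAT. In female liver it recovered 77.5% and 89.5%, and in male liver 50% and 87%. With 25.2% of genes called in the real female gWAT table, these shares do not give the power of that fit. Floors and depth cover counting error only. Python 3.11.15 ran the rest (pandas 2.3.3, SciPy 1.17.1, NumPy 2.4.6; figures by matplotlib 3.10.9).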

Additional observations from a re-analysis of the deposited data

Results flagged for a closer look

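In groups of 4 or 5 libraries, 3 of 56 sets of values of a member held a library far from the others, and chance flags about 1 in 20. H2-Eb1 in male gWAT was low in nicotine library 1 (85.0 normalized counts, next 195), a library with male reproductive tract transcripts. H2-DMb1 in male gWAT was low in control library 1 (96.0, next 112), the other library with such transcripts. H2-Ab1 in female liver was high in control library 4 (28.5, next 15.4), which carried muscle transcripts. The change of H2-Eb1 in gWAT differed between the sexes, with a female minus male change of -2.51.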

How the results depend on the processing

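In female gWAT, 3 to 6 members passed across 21 alternatives; H2-Eb1, H2-Aa and H2-Ab1 passed in each. The count was 3 without control libraries 2 and 4 and 3 with the length and GC trend removed, and leaving out 1 library gave 3 (control library 4) to 5. In male gWAT none passed in 19 alternatives. In female liver leaving out 1 library gave 0 to 1 (control library 4). In male liver DESeq2 gave 1. The sex difference in gWAT counted 3 members with a mean of 50 or more, 2 without male control library 1 and male nicotine library 1, and 1 to 4 leaving out 1 library (4 without female nicotine library 5 or male nicotine library 1). Over both sexes of gWAT leaving out 1 library gave 0 (male control libraries 2 or 3) to 1. In liver, leaving out 1 library gave 0 to 1 members with a sex difference (male nicotine library 2) and 0 to 1 over both sexes. The count over both sexes was 0 with a mean of 50 or more, where H2-Ab1 is not tested, and 0 without male nicotine libraries 1 and 5 (H2-Ab1 at 0.69, adjusted p = 0.090). Those libraries held the highest class II sums, so leaving them out lowers the male change. Their omission was planned. They also had the lowest normalized totals of male liver (1485048 and 1539615, against 1804444 to 2005695 in the other libraries). Whether those totals bear on the class II values was not tested. Without the 4 liver libraries that carried muscle or pancreas transcripts, the sex difference counted 1. Of 4 relations of H2-Ab1 to marker sums, 1 passed with group means removed (dendritic cell, male gWAT). Without the 2 farthest libraries 2 passed. Of these, 1 was among the 4 (dendritic cell, female gWAT) and the other was the B cell relation of female gWAT (permutation adjusted p = 0.049, against 0.055 over all libraries). Both pool nicotine and control libraries, between which H2-Ab1 differed, so they do not show a relation within groups. With group means removed, neither passed (B cell r = 0.31, permutation p = 0.37, adjusted 0.56, and dendritic cell r = 0.52, permutation p = 0.12, adjusted 0.47). Where not stated, the cause was not tested.

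Signs turned for uncalled values only. In male gWAT, leaving out 1 library gave -0.15 to 0.45 for H2-Aa, -0.16 to 0.36 for H2-Ab1, -0.045 to 0.51 for H2-Eb1, -0.25 to 0.27 for Ciita and -0.32 to 0.033 for H2-DMa; without control library 1 and nicotine library 1, H2-DMa was at 0.025 and Ciita at -0.036, and with the length and GC trend removed H2-Ab1 was at -0.045. In female liver leaving out 1 library gave -0.23 to 0.10 for H2-Eb1. In male liver H2-Aa was at -0.21, H2-Eb1 at 0.76 and H2-Ab1 at 0.63, and the sex difference of H2-Ab1 in liver at 0.12, without male nicotine libraries 1 and 5. The H2-Eb1 over H2-Aa difference, leaving out 1 library, ran from -0.99 to -0.73 in female gWAT and from 0.81 to 1.14 in male liver.

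Genes called ranged from 1539 (without control libraries 2 and 4) to 3175 in female gWAT (2656 as reported), 181 to 341 in female liver (301), 0 to 186 in male liver (5), 448 to 1122 for the sex difference (891) and 136 to 587 over both sexes (406) in gWAT, and 71 to 323 (136) and 72 to 268 (151) in liver. Total-read scaling moved the median of all genes to -0.37 in female gWAT and 0.11 in male liver. Same-numbered libraries correlated at -0.28 to 0.17 over genes, which cannot show whether they share a litter or handling. With the replicate block 4 members passed in female gWAT (H2-DMb1 limma adjusted p = 0.0505) and 0 in each liver table. No paired analysis was possible in male gWAT because its 4 control columns could not be matched to numbered samples. Liver counts of H2-DMa, Cd74 and Ciita, at most 50 reads a group, limit what those genes can show.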
